A study of Mus musculus with 32 samples.

Results

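Expression of 10 genes of the MHC class I antigen processing pathway was followed in bone marrow-derived macrophages (BMDMs). The period was the first 4 days after induced deletion of *Trex1*, which encodes the DNase TREX1. The genes were *H2-K1*, *H2-D1*, *B2m*, *Tap1*, *Tap2*, *Tapbp*, *Psmb8*, *Psmb9*, *Psmb10* and *Nlrc5*. They were chosen by symbol for their role in the pathway. The rule used no measured values, but earlier results of these data were known when the genes were chosen. All 10 were found among the 54281 gene identifiers of the count table, and all 10 passed the filter on low counts that left 15257 genes for testing.

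BMDMs are macrophages grown in culture from mouse bone marrow. All cells came from mice heterozygous for R26 CreERT2, a Cre recombinase expressed from the ubiquitous *Rosa26* locus that becomes active when 4-hydroxytamoxifen (4-OHT) is added. In *Trex1* FL/FL cells active Cre can remove the loxP-flanked part of both *Trex1* alleles. *Trex1* WT/FL cells keep a wild type allele and lose the floxed copy, so that the 4-OHT-treated control is not a wild type cell. Cultures of both genotypes received 2 µg/ml 4-OHT for 22 h or stayed untreated, and were harvested on days 1, 2, 3 and 4 after the exposure. This gave 16 groups of 2 libraries each, 32 in all. The labels do not say whether the 2 libraries of a group came from separate cultures or animals, so that p-values measure the spread between these libraries, which may be technical.

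MHC class I molecules present peptides from the cytosol and nucleus to CD8+ T cells. Proteins are cut by proteasomes, in which the inducible subunits encoded by *Psmb8*, *Psmb9* and *Psmb10* can replace the constitutive catalytic subunits, and the TAP1-TAP2 transporter carries the peptides into the endoplasmic reticulum. There tapasin, the product of *Tapbp*, bridges the transporter and empty heavy chains (H2-K, H2-D) that are bound to beta-2 microglobulin. NLRC5 is a transactivator of class I genes that is recruited to their promoters by a complex of RFX, CREB/ATF and NF-Y factors on the so-called SXY module, and interferons are known to raise the expression of most of these genes in macrophages.

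Of the 10 genes, 7 lie within the MHC region of mouse chromosome 17. On GRCm39 *Tapbp* is found at chr17:34134873-34148267, *H2-K1* at chr17:34214987-34219321, *Psmb9* at chr17:34400960-34406738, *Tap1* at chr17:34405996-34416199, *Psmb8* at chr17:34416690-34420428, *Tap2* at chr17:34422501-34435829 and *H2-D1* at chr17:35481691-35486475. *B2m* lies on chromosome 2 (chr2:121977957-121983594), and *Nlrc5* (chr8:95160984-95253900) and *Psmb10* (chr8:106662362-106665077) lie on chromosome 8. *Psmb9* and *Tap1* are transcribed in opposite directions from starts 225 bases apart in the RefSeq table, and their annotated gene bodies overlap.

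The proximal promoters of the 3 genes for the class I molecule itself are shown because each carries, in the same order and at the same spacing, letters of the X2 and Y boxes that CREB/ATF and NF-Y factors are known to bind. The sequences are from RefSeq (GRCm38.p6, an older build than the GRCm39 of the counts) and are written on the strand of the gene, with capitals marking the NF-κB-like letters (GGGANNNNCC), the IRF core (AANNGAAA), the X2 core (TGACG) and the Y box (CCAAT), each searched on both strands.
H2-K1 (chr17:34000355-34000462, minus strand): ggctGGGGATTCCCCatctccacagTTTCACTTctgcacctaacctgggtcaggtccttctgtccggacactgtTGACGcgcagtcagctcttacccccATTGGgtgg
H2-D1 (chr17:35262919-35263026, plus strand): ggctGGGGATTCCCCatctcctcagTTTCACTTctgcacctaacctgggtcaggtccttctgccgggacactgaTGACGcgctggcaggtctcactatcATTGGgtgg
B2m (chr2:122147546-122147642, plus strand): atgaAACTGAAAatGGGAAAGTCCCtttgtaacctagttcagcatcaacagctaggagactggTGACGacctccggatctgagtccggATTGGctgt

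The X2 core lies 41 bases before the start in *H2-K1*, 101 in *H2-D1* and 78 in *B2m*, and in all 3 the reverse complement of the Y box (ATTGG) follows after 20 bases. The NF-κB-like letters stand before the IRF core in *H2-K1* and *H2-D1* and after it in *B2m*, and in all 3 a match to GGGANNNNCC on one strand overlaps a match on the other. Among 32851 RefSeq windows of 300 bases (250 before to 50 after the start), X2 core and ATTGG in this order with 15 to 30 bases between them were found in 0.307%. Of the 8 genes with a window, *H2-K1*, *H2-D1* and *B2m* held this arrangement and *Tap1*, *Tapbp*, *Psmb8*, *Psmb9* and *Psmb10* did not. *Tap2* and *Nlrc5* were not analysed here in this respect. Single motifs are frequent in such windows. The IRF core was in 23.9% of all windows and in the same 3 genes, the X2 core in 20.8% and in 5 genes, the Y box in 37.4% and in 6, the NF-κB-like letters in 20.7% and in 3, and the STAT-type sequence TTCNNNGAA in 8.3% and in *Psmb8* alone. A match describes letters in the window and shows no binding, and a missing match says nothing about a factor that may act elsewhere.

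The stretch between the start sites of *Psmb9* (left, reading leftwards) and *Tap1* (right) is shown because both genes share it as their promoter. It holds a CCAAT and a TGACG on the *Tap1* strand, in capitals, with the Y box first.
Tap1 (chr17:34187331-34187555, plus strand): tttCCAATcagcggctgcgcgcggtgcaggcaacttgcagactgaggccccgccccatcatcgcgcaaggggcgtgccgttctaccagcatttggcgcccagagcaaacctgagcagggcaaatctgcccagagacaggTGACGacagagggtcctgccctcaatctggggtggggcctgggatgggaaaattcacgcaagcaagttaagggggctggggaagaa

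Total counts ranged from 35120505 to 63760884 per library (median 44841991). *Trex1* was at 0 CPM (counts-per-million of library size) in both 4-OHT-treated *Trex1* FL/FL libraries on days 1, 3 and 4 and at 0.347 and 0.250 CPM on day 2. In 4-OHT-treated *Trex1* WT/FL cells its mean was 13.6, 57.2, 74.2 and 48.4 CPM on days 1 to 4, against 30.3, 119.0, 135.1 and 84.3 CPM in untreated cells of that genotype. All 8 macrophage markers examined were present in every library, from *Mertk* (median 107 CPM) to *Lyz2* (19000 CPM). Of 5 T cell markers *Cd8a*, *Cd3e*, *Cd3g* and *Cd3d* were at 0 in 32, 31, 31 and 26 libraries and did not exceed 0.0908 CPM. The T cell marker *Cd4* did not follow them. It was at 0 in 2 libraries and reached 52.9 CPM (median 15.7), and with it the sum of the list went from at most 0.255 CPM on day 1 to between 27.3 and 52.9 CPM on days 3 and 4 over the 4 arms, and *Cd4* was not called between the genotypes after 4-OHT on any day. The NK cell genes *Ncr1* and *Eomes* were at 0 in all 32, and the NK cell list summed to at most 0.15 CPM. Most of the other lists were low but not absent. Per library the B cell list summed to between 1.31 and 6.58 CPM and the dendritic cell list to between 0.472 and 2.47 CPM. The granulocyte and progenitor list summed to between 3.19 and 13.8 CPM and the fibroblast list to at most 1.68 CPM. The endothelial list, with sums from 2.99 to 71.2 CPM, is taken up below.

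The second untreated *Trex1* FL/FL library of day 1 stood apart in several class I genes, and not in these alone. It held *H2-K1* at 446.4, *H2-D1* at 741.1 and *Tap2* at 28.3 CPM, where the 7 other day 1 libraries lay between 611.3 and 663.2, between 1072 and 1131 and between 53.6 and 58.3 CPM. *Psmb8* (84.6 CPM), *Psmb9* (25.1 CPM) and *Psmb10* (28.5 CPM) were also lowest in this library on day 1, whereas its *B2m* (925.4 CPM) was the highest. Outside the members, the constitutive proteasome gene *Psmb5* had 83.2 CPM in it, against 103.3 to 117.7 CPM in the 7 other day 1 libraries. Since all groups share the estimate of the spread, comparisons that use this library are given with and without it, and other counts where leaving it out of the fit moved them by over 1.5 times, a choice made after seeing the data.

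The main comparison of the study sets 4-OHT-treated *Trex1* FL/FL against 4-OHT-treated *Trex1* WT/FL cells and asks what induced deletion of *Trex1* changes on each day. Class I processing genes differed by no more than 0.09 on the log2 scale on day 1 and were higher in the *Trex1* FL/FL cells from day 2 on. Called at an adjusted p below 0.01 (edgeR, Benjamini-Hochberg over all 15257 genes), 0, 8, 9 and 10 of 10 members were higher on the 4 days in turn, and none was lower. On day 1 the count was also 0 at an unadjusted p below 0.05 (2.02% of all genes) and 0 by DESeq2. Of all genes tested, 0.0197%, 8.17%, 12.1% and 21.5% were called in either direction, and those called higher made up 0.00655%, 5.69%, 6.69% and 9.84%. The differences were moderate: none of the 10 passed an absolute log2 fold change of 1.5, which the study used as a second threshold and which 0.0131%, 0.583%, 0.872% and 2.98% of all genes passed. In bulk RNA a change in the amount per cell and a change in the share of expressing cells cannot be told apart.

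The median log2 fold change of the 10 genes was 0.04, 0.77, 0.57 and 1.06 on the successive days, beside a median of all tested genes of -0.01, -0.01, -0.01 and -0.04. Both *Trex1* FL/FL libraries lay above both *Trex1* WT/FL libraries in 2 members on day 1 and in 10 on each of days 2, 3 and 4. The same held for 12.9%, 25.2%, 28.0% and 27.9% of all genes tested. Both libraries lay above all 6 control libraries of their day, untreated cells included, in 0, 10, 10 and 10 members, against 2.63%, 17.3%, 18.8% and 18.3% of all genes. Without the library that stood apart, the day 1 count was also 0 (3.79% of all genes).

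**Figure D1:**
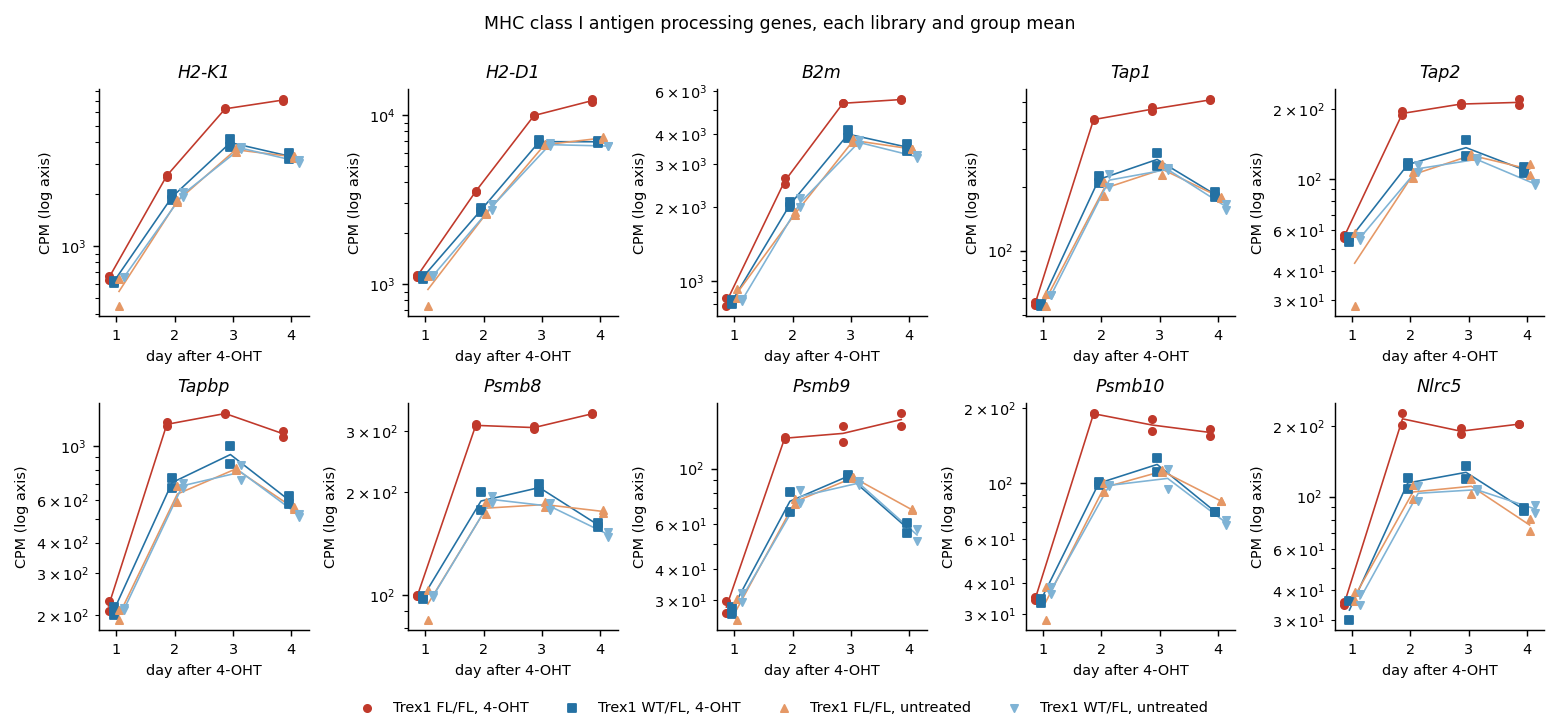
CPM (log axis) of each of the 10 genes against the day after 4-OHT, with a point for every library and lines through the mean of the 2 libraries of a group. From day 2 on the red points (4-OHT-treated *Trex1* FL/FL) lie above the 6 control libraries in all 10 panels, and the low orange triangle of day 1 is the library that stood apart.

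*H2-K1* encodes the heavy chain of the classical class I molecule H2-K. After 4-OHT its 2 libraries gave 628.2 and 663.2 CPM in *Trex1* FL/FL and 625.8 and 611.3 in *Trex1* WT/FL libraries on day 1. On day 2 they gave 2526 and 2595 against 2009 and 1842 CPM, on day 3 6327 and 6212 against 3781 and 4190 CPM, and on day 4 7110 and 7008 against 3188 and 3471 CPM. The 2 genotypes overlapped in no library from day 2 on, and the gap widened while the controls levelled off between 3020 and 4190 CPM. The log2 fold change was 0.41 ± 0.10 (SE) on day 2, 0.65 ± 0.10 on day 3 and 1.08 ± 0.10 on day 4 (edgeR adjusted p = 0.00467, 3.288e-05 and 9.576e-09). The day 2 call was lost when any of its 4 libraries was left out (adjusted p from 0.0153 to 0.0913) and with library totals in place of scaling factors (0.33, adjusted p = 0.0236).

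*H2-D1*, the heavy chain of H2-D, went from 1107 and 1131 CPM on day 1 to 12370 and 11990 CPM on day 4 in *Trex1* FL/FL cells, and from 1118 and 1072 to 6842 and 7049 CPM in *Trex1* WT/FL cells. The genotype difference was 0.37 ± 0.10 on day 2, which did not pass the test (edgeR adjusted p = 0.0178), 0.51 ± 0.10 on day 3 (adjusted p = 0.000886) and 0.81 ± 0.10 on day 4 (adjusted p = 2.244e-06). Without the untreated library that stood apart, the day 2 value was 0.37 with an adjusted p of 3.897e-07. The day 3 call was lost without the first *Trex1* WT/FL library (0.47, adjusted p = 0.0235) or the first *Trex1* FL/FL library of that day (0.50, adjusted p = 0.0117). *H2-K1* and *H2-D1* share much of their sequence with each other and with other class I genes: 38.3% and 44.7% of the 31-base words in their annotated transcripts also occur in other genes, so that the split of reads between them is uncertain.

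*B2m* encodes beta-2 microglobulin, the light chain that all class I heavy chains need, and shares none of its 31-base words with another gene. It had 788.4 and 847.5 CPM in *Trex1* FL/FL and 836.5 and 801.3 in *Trex1* WT/FL libraries on day 1, and 5531 and 5542 against 3416 and 3655 CPM on day 4. Its genotype difference was the smallest of the 10 on each of days 2 to 4, with a log2 fold change of 0.32 ± 0.05, 0.42 ± 0.05 and 0.65 ± 0.05 (edgeR adjusted p = 9.481e-05, 2.035e-06 and 3.346e-10).

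*Tap1* encodes the first subunit of the peptide transporter. Its 4-OHT-treated libraries gave 55.8 and 57.7 CPM in *Trex1* FL/FL and 56.5 and 55.0 in *Trex1* WT/FL libraries on day 1. They gave 415.4 and 409.6 against 225.3 and 206.8 CPM on day 2, 470.5 and 452.6 against 250.2 and 286.2 CPM on day 3, and 508.0 and 513.1 against 178.7 and 187.7 CPM on day 4. The *Trex1* FL/FL libraries of days 2 to 4 all lay above 400 CPM, and no control library of any day exceeded 286.2 CPM. *Tap1* had the largest difference of the 10 on each of these days: 0.93 ± 0.08, 0.78 ± 0.08 and 1.48 ± 0.08 (edgeR adjusted p = 1.57e-09, 2.522e-08 and 4.643e-14).

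*Tap2* encodes the second transporter subunit. On day 2 it had 194.8 and 187.4 CPM in *Trex1* FL/FL against 117.0 and 113.1 CPM in *Trex1* WT/FL cells, and on day 4 206.9 and 219.5 against 106.3 and 111.8 CPM. The groups did not overlap, but the log2 fold changes of 0.73 ± 0.18 on day 2 and 0.62 ± 0.18 on day 3 did not pass the test (edgeR adjusted p = 0.0119 and 0.0226). The fit behind these errors held the untreated library that stood apart. Without it the values were 0.73 (adjusted p = 8.618e-10) and 0.63 (adjusted p = 9.993e-09). On day 4 the difference was 0.97 ± 0.18 (adjusted p = 0.000548), and leaving out the first *Trex1* WT/FL library of that day gave 0.93 with an adjusted p of 0.0103.

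*Tapbp* encodes tapasin, which holds empty class I molecules at the transporter. On day 1 it had 230.0 and 207.8 CPM in *Trex1* FL/FL and 201.6 and 217.6 in *Trex1* WT/FL libraries. On day 2 the values were 1257 and 1207 against 742.6 and 673.1 CPM, on day 3 1362 and 1369 against 845.5 and 1003 CPM, and on day 4 1089 and 1161 against 575.2 and 625.3 CPM. It differed by 0.80 ± 0.08, 0.56 ± 0.08 and 0.91 ± 0.08 on days 2 to 4 (edgeR adjusted p = 7.928e-08, 1.287e-05 and 2.179e-09). Of its 31-base words 45.5% also occur in other annotated genes, mostly the neighbours *Gm19412* and *Zbtb22*.

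The 3 inducible proteasome subunits moved together. *Psmb8*, which encodes the chymotrypsin-like subunit LMP7, had 99.6 and 99.7 CPM in *Trex1* FL/FL and 99.3 and 97.4 in *Trex1* WT/FL libraries on day 1, and 339.1 and 337.0 against 158.2 and 162.6 CPM on day 4. *Psmb9*, which encodes LMP2, had 26.6 and 29.8 against 28.3 and 26.5 CPM on day 1, and 165.8 and 147.3 against 55.7 and 61.1 CPM on day 4. *Psmb10*, which encodes MECL-1, had 34.1 and 35.1 against 33.4 and 34.5 CPM on day 1, and 164.4 and 154.2 against 76.5 and 77.0 CPM on day 4. In each, libraries of the 2 genotypes overlapped or lay next to each other on day 1 and lay far apart on day 4.

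The log2 fold change of *Psmb8* was 0.73 ± 0.07, 0.58 ± 0.07 and 1.08 ± 0.07 on days 2 to 4 (edgeR adjusted p = 8.925e-09, 3.217e-07 and 1.119e-12). *Psmb9* gave 0.83 ± 0.09, 0.56 ± 0.09 and 1.42 ± 0.09 (adjusted p = 2.841e-07, 5.422e-05 and 6.036e-12). *Psmb10* gave 0.92 ± 0.09, 0.52 ± 0.09 and 1.05 ± 0.09 (adjusted p = 1.323e-07, 0.000206 and 3.874e-09). The day 3 call of *Psmb10* was lost without the first *Trex1* WT/FL library of that day (0.43, adjusted p = 0.0132). *Psmb9* and *Tap1* overlap on opposite strands and share 713 words (17.7% of those of *Psmb9*), and the use of strand in the counting is not given in the sources used here, so that reads from the shared stretch cannot be told apart.

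*Nlrc5*, the transactivator of the class I genes, had 35.6 and 34.5 CPM in *Trex1* FL/FL and 36.0 and 30.0 in *Trex1* WT/FL libraries on day 1. On day 2 it had 226.0 and 202.0 against 120.4 and 108.3 CPM, on day 3 195.5 and 183.8 against 119.0 and 134.7 CPM, and on day 4 203.8 and 202.6 against 86.7 and 89.4 CPM. The *Trex1* FL/FL libraries thus stayed near 200 CPM from day 2 on, and the controls were highest on day 2 or 3. The differences were 0.90 ± 0.10, 0.58 ± 0.10 and 1.21 ± 0.10 (edgeR adjusted p = 2.938e-07, 9.425e-05 and 7.878e-10).

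**Figure D2:**
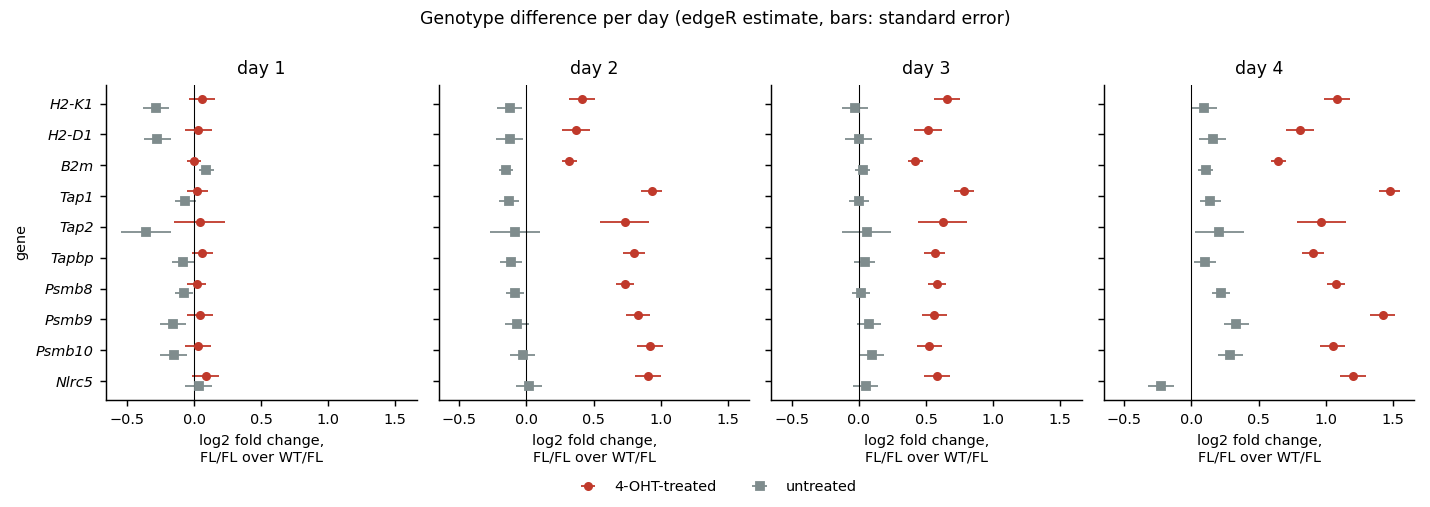
Log2 fold change of *Trex1* FL/FL over *Trex1* WT/FL for each gene and day, as the edgeR estimate with its standard error, in 4-OHT-treated (red circles) and untreated cells (grey squares). The red circles sit near 0 on day 1 and between 0.65 and 1.48 on day 4, whereas the grey squares of day 4 lie between -0.23 and 0.34.

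Against all genes tested, the members formed part of the upper tail and not its end. On day 4, 3.94% of genes had a larger log2 fold change than *Tap1*, 5.18% a larger one than *Nlrc5* and 10.0% a larger one than *B2m*, which ranked lowest of the 10.

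**Figure D3:**
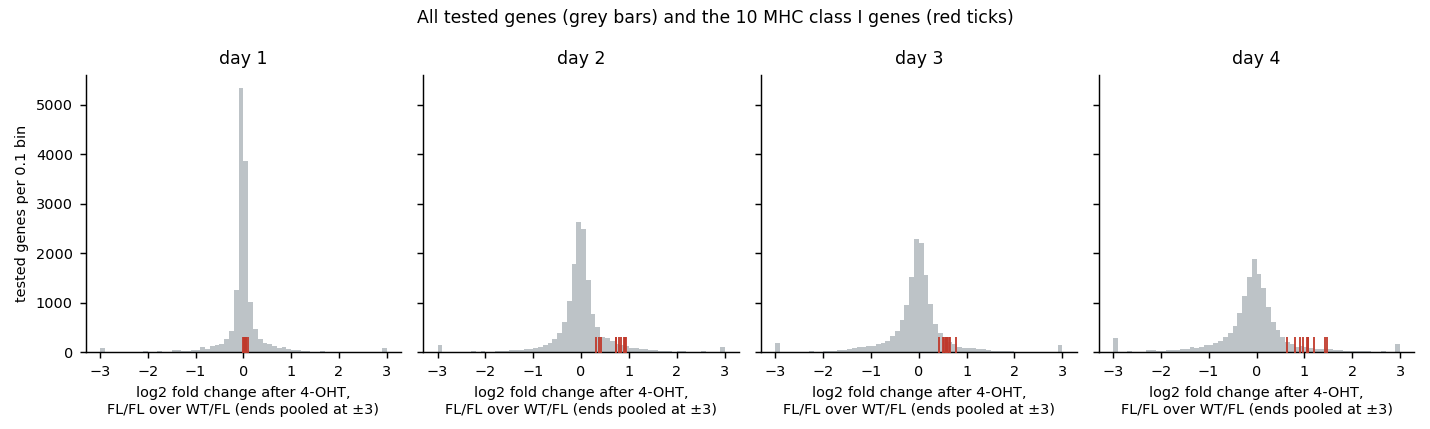
Distribution of the log2 fold change of all 15257 tested genes on each day (grey, genes per bin of 0.1, with values beyond 3 in either direction pooled in the end bins) and the 10 members as red ticks. The ticks sit in the central peak on day 1 and in the right shoulder of the distribution on days 2 to 4, with medians of 0.77, 0.57 and 1.06.

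Levels between genes were compared per annotated exon length, as RPKM (CPM divided by exon length in kilobases). In 4-OHT-treated *Trex1* FL/FL cells of day 4 the order was *H2-D1* (4070 ± 89.9 RPKM, SD, n = 2), *B2m* (2629 ± 3.62), *H2-K1* (2216 ± 22.8), *Tapbp* (255.1 ± 11.5), *Psmb8* (99.0 ± 0.426), *Psmb10* (92.0 ± 4.19), *Tap1* (85.0 ± 0.602), *Tap2* (44.7 ± 1.87), *Psmb9* (41.2 ± 3.43) and *Nlrc5* (23.9 ± 0.102). The components of the class I molecule were thus the most abundant by RPKM and its transactivator the least. *Psmb8*, *Psmb10* and *Tap1* lay close together, and *Tap2* and *Psmb9* differed by about the spread between libraries. In 4-OHT-treated *Trex1* WT/FL cells of the same day the values ran from 2321 ± 48.9 RPKM for *H2-D1* to 10.4 ± 0.225 RPKM for *Nlrc5*. There *Tap1* (30.5 ± 1.05 RPKM) stood below *Psmb8* (47.0 ± 0.904 RPKM) and *Psmb10* (44.3 ± 0.188 RPKM).

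Untreated cells were used to see whether the genotypes differed without 4-OHT. In them 0 of 10 members were called on each of the 4 days, by edgeR and by DESeq2, beside 0%, 0%, 0% and 0.0655% of all genes. At an unadjusted p below 0.05 there were 2, 1, 0 and 4 members, beside 7.40%, 3.85%, 3.07% and 15.8% of all genes. On day 4 the largest untreated difference was that of *Psmb9* (0.34 ± 0.09, adjusted p = 0.0564), with 69.2 and 68.2 CPM in *Trex1* FL/FL against 51.7 and 57.3 CPM in *Trex1* WT/FL cells, and that of *Nlrc5* pointed downwards (-0.23 ± 0.10, adjusted p = 0.245). On day 1 the differences depended on the library that stood apart. Without it their median was 0.03 in place of -0.12, and they ranged from -0.05 to 0.10 in place of -0.36 to 0.09.

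Treatment with 4-OHT was also examined in cells that keep a wild type *Trex1* allele. There it also activates Cre and removes the floxed copy, and these effects cannot be told apart from that of the drug. In *Trex1* WT/FL cells 0 of 10 members were called between 4-OHT-treated and untreated cultures on any day, by edgeR and by DESeq2, beside 0.00655%, 0.0918%, 0.341% and 0.216% of all genes. At an unadjusted p below 0.05 there were 0, 0, 4 and 3 members, beside 2.48%, 3.47%, 8.40% and 7.08% of all genes. The median of the 10 was -0.07, -0.003, 0.16 and 0.12, beside 0.002, 0.004, 0.000 and 0.007 for all genes. The estimate was positive in 0, 5, 10 and 9 members, so that small shifts on days 3 and 4 pointed mostly upwards. The largest difference on day 3 was that of *Nlrc5* (0.24 ± 0.10, adjusted p = 0.419) and on day 4 that of *Tapbp* (0.21 ± 0.08, adjusted p = 0.493).

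In *Trex1* FL/FL cells the same contrast gave 0 called members on day 1 by edgeR and DESeq2 (3 at an unadjusted p below 0.05, beside 7.00% of all genes) and 10 of 10, all higher, on each of days 2, 3 and 4, beside 0.0131%, 11.1%, 15.7% and 21.4% of all genes. The median was 0.06, 0.86, 0.74 and 0.99. On day 4 *Tap1* rose by 1.52 ± 0.08 and was the single member past 1.5 (3.43% of all genes), followed by *Nlrc5* (1.42 ± 0.10) and *Psmb9* (1.19 ± 0.09). Without the library that stood apart the day 1 median was -0.06 in place of 0.06, and the members ranged from -0.17 to 0.06 in place of -0.12 to 0.38. This comparison shares its 4-OHT-treated *Trex1* FL/FL libraries with the main one and is no independent repeat of it.

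The interaction of genotype and 4-OHT removes what differs between the genotypes without treatment. It called 0, 7, 5 and 9 members on days 1 to 4 (on day 1, 2 at an unadjusted p below 0.05, as were 3.57% of all genes, and 0 by DESeq2), all with a larger effect of 4-OHT in *Trex1* FL/FL cells, beside 0.00655%, 4.04%, 4.65% and 10.4% of all genes. The medians were 0.16, 0.85, 0.53 and 0.83. On day 4 *Nlrc5* had the largest interaction (1.43 ± 0.14, edgeR adjusted p = 4.371e-08), then *Tap1* (1.34 ± 0.11, adjusted p = 8.054e-10) and *Psmb9* (1.09 ± 0.13, adjusted p = 7.765e-07). *Tap2* (0.76 ± 0.26, adjusted p = 0.0582) was the member not called. Not called on day 2 were *H2-K1* (0.54 ± 0.14, adjusted p = 0.0156), *H2-D1* (0.50 ± 0.14, adjusted p = 0.0423) and *Tap2* (0.82 ± 0.26, adjusted p = 0.081). The fit behind these errors held the library that stood apart. Without it *Tap2* was at 0.76 on day 4, and *H2-K1*, *H2-D1* and *Tap2* were at 0.535, 0.49 and 0.815 on day 2. A missing call in these genes thus does not show that a difference was absent.

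The count of day 3 was the least certain, and its refits have no share of all genes beside them. It was 2 without the first 4-OHT-treated *Trex1* WT/FL library or the second untreated *Trex1* FL/FL library of day 3, 3 without the first 4-OHT-treated *Trex1* FL/FL library, 8 by DESeq2 and 9 when the untreated day 1 library that stood apart was left out of the fit. The interaction of day 1 called 3 members, *H2-K1*, *H2-D1* and *Tap2*, when the first untreated *Trex1* FL/FL library of that day was left out. Without the library that stood apart it called 0, with 0 at an unadjusted p below 0.05, and its median was -0.01 in place of 0.16, with *H2-K1* at 0.11, *H2-D1* at 0.04 and *Tap2* at -0.03.

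The genotype difference grew in steps. Between days 1 and 2 it increased in 7 members (3.02% of all genes were called in either direction), by 0.91 ± 0.11 for *Tap1*, 0.89 ± 0.13 for *Psmb10* and 0.82 ± 0.14 for *Nlrc5*, with *H2-K1*, *H2-D1* and *Tap2* not called. Between days 2 and 3 it changed in 0 members by edgeR and DESeq2 (0.905% of all genes), and in 4 at an unadjusted p below 0.05 (14.8% of all genes). The point estimates were negative for the 7 processing and regulatory genes, from -0.11 for *Tap2* to -0.40 for *Psmb10*, and positive for *H2-K1* (0.24), *H2-D1* (0.15) and *B2m* (0.10). Between days 3 and 4 it increased in 4 members, by 0.86 ± 0.13 for *Psmb9*, 0.70 ± 0.11 for *Tap1*, 0.63 ± 0.13 for *Nlrc5* and 0.49 ± 0.09 for *Psmb8* (3.70% of all genes). The count of this last step was higher when the untreated day 1 library that stood apart was left out of the fit. The share of all genes called in that fit was not determined.

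The course over days was then followed within each arm. Between days 1 and 2 all 10 members rose in all 4 arms, with or without 4-OHT. The median rise was 2.11 in 4-OHT-treated *Trex1* FL/FL, 1.498 in 4-OHT-treated *Trex1* WT/FL, 1.48 in untreated *Trex1* FL/FL and 1.37 in untreated *Trex1* WT/FL cells, and 21.7%, 20.2%, 20.3% and 20.2% of all genes were called higher. In untreated *Trex1* FL/FL cells the median was 1.30 without the library that stood apart, with members from 0.79 to 1.64. In 4-OHT-treated *Trex1* FL/FL cells it was largest for *Tap1* (2.86 ± 0.08) and smallest for *B2m* (1.65 ± 0.06). In untreated *Trex1* WT/FL cells, which had not met 4-OHT, *Tap1* rose by 1.797 ± 0.08, *Tapbp* by 1.69 ± 0.08 and *Nlrc5* by 1.49 ± 0.10.

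Between days 2 and 3 the genes parted. *H2-K1*, *H2-D1* and *B2m* rose again in every arm, by 0.90 to 1.29, by 1.23 to 1.49 and by 0.82 to 1.06. The 7 other members changed by at most 0.39 in any arm. Of the 10, 3 were called higher in 4-OHT-treated *Trex1* FL/FL, 6 in 4-OHT-treated *Trex1* WT/FL, 6 in untreated *Trex1* FL/FL and 3 in untreated *Trex1* WT/FL cells, against 15.1%, 17.7%, 18.7% and 17.1% of all genes. The additional 3 in both arms with 6 were *Tap1*, *Tapbp* and *Psmb9*. These calls were lost, leaving 3, without the second library of day 2 or the second of day 3 in 4-OHT-treated *Trex1* WT/FL cells, and without the second library of day 2 or the first of day 3 in untreated *Trex1* FL/FL cells.

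Between days 3 and 4 the processing genes fell in the controls. Called lower were 6 members in 4-OHT-treated *Trex1* WT/FL cells (5.93% of all genes), 5 in untreated *Trex1* FL/FL (7.18%) and 5 in untreated *Trex1* WT/FL cells (6.39%). *Tap1* fell by 0.55, 0.44 and 0.58 on the log2 scale, *Tapbp* by 0.62, 0.54 and 0.60, *Psmb9* by 0.68, 0.42 and 0.69 and *Psmb10* by 0.63, 0.39 and 0.59 in these arms. *Psmb8* fell by 0.36 and 0.27 in the treated and untreated *Trex1* WT/FL arms. *Nlrc5* fell by 0.53 in 4-OHT-treated *Trex1* WT/FL and by 0.55 in untreated *Trex1* FL/FL cells. In 4-OHT-treated *Trex1* FL/FL cells 0 members were called by edgeR and DESeq2 (beside 9.33% of all genes in either direction), and 2 at an unadjusted p below 0.05 (27.5% of all genes). The estimates there were 0.15 ± 0.08 for *Tap1*, 0.18 ± 0.09 for *Psmb9*, 0.10 ± 0.09 for *Nlrc5* and -0.28 ± 0.08 for *Tapbp* (adjusted p = 0.0177). The difference between the 4-OHT-treated arms in this step is the change of the genotype difference tested above, with 4 members called. In untreated *Trex1* FL/FL cells the count was 2 without the first library of day 3 and 3 without any other library of this step. The counts of untreated *Trex1* WT/FL and 4-OHT-treated *Trex1* FL/FL cells rose when the day 1 library that stood apart was left out. The share of all genes called in that fit was not determined.

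**Figure D4:**
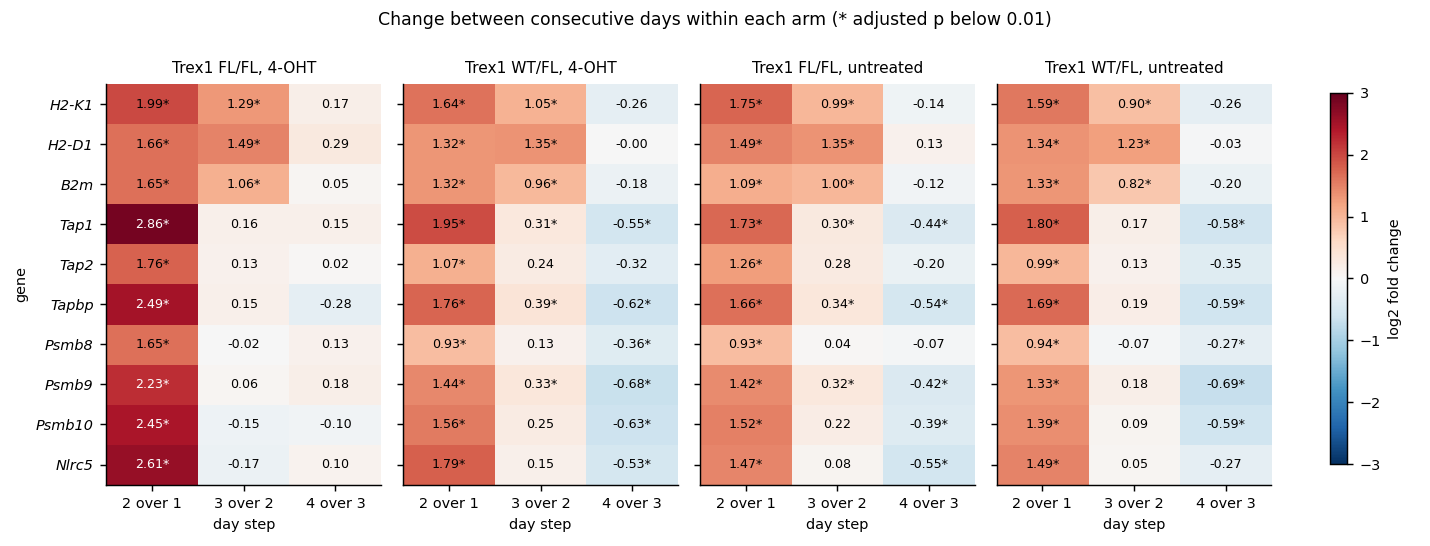
Log2 fold change between consecutive days for each gene (rows) in the 4 arms (panels), with the value in each cell and an asterisk for an adjusted p below 0.01. The first column is red in all arms, the second is red mainly for *H2-K1*, *H2-D1* and *B2m*, and the third is blue for the processing genes in the 3 control arms, with no asterisk in the 4-OHT-treated *Trex1* FL/FL arm.

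The relation of inducible to constitutive proteasome subunits was followed as the log2 ratio of RPKM within a library, which does not depend on the scaling between libraries. Constitutive *Psmb5*, *Psmb6* and *Psmb7* are replaced by the products of *Psmb8*, *Psmb9* and *Psmb10* in the immunoproteasome. On day 1 the *Psmb8* to *Psmb5* ratio was -0.98 and -1.17 in 4-OHT-treated *Trex1* FL/FL and -1.07 and -1.04 in 4-OHT-treated *Trex1* WT/FL cells, and on day 4 it was 1.08 and 1.16 against 0.25 and 0.45. By RPKM the inducible subunit thus went from below to above its counterpart in both genotypes, and further in *Trex1* FL/FL cells. *Psmb9* to *Psmb6* went from -2.79 and -2.83 to -0.34 and -0.39 in *Trex1* FL/FL and from -2.81 and -2.88 to -1.52 and -1.24 in *Trex1* WT/FL cells, and so stayed below equality by RPKM. The side of equality depends on the exon lengths used. By CPM, *Psmb9* on day 4 lay above *Psmb6* in 4-OHT-treated *Trex1* FL/FL libraries (165.8 and 147.3 against 121 and 111.1). It lay below *Psmb6* in 4-OHT-treated *Trex1* WT/FL libraries (55.7 and 61.1 against 91.9 and 83.3). *Psmb10* to *Psmb7* went from -0.25 and -0.33 to 2.62 and 2.74 in *Trex1* FL/FL and from -0.28 and -0.28 to 1.74 and 1.88 in *Trex1* WT/FL cells. This too depends on the exon lengths. By CPM, *Psmb10* on day 4 lay near *Psmb7* in 4-OHT-treated *Trex1* WT/FL libraries (76.54 and 77 against 79.66 and 72.95). It lay above *Psmb7* in 4-OHT-treated *Trex1* FL/FL libraries (164.4 and 154.2 against 93.35 and 80.24).

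The genotype difference of the ratio was -0.02, 0.63, 0.35 and 0.77 for *Psmb8* to *Psmb5*, 0.04, 0.65, 0.24 and 1.02 for *Psmb9* to *Psmb6*, and -0.01, 0.73, 0.36 and 0.87 for *Psmb10* to *Psmb7* on days 1 to 4. Both *Trex1* FL/FL libraries lay above both *Trex1* WT/FL libraries in all 3 ratios on days 2, 3 and 4. The two-sided exact permutation test gave p = 0.333 in each of these, which is the smallest that 2 against 2 libraries allow. The counts of *Psmb5* and *Psmb7* are less certain, since 52.3% and 45.1% of their 31-base words occur in other genes, against 4.67% for *Psmb6*.

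**Figure D5:**
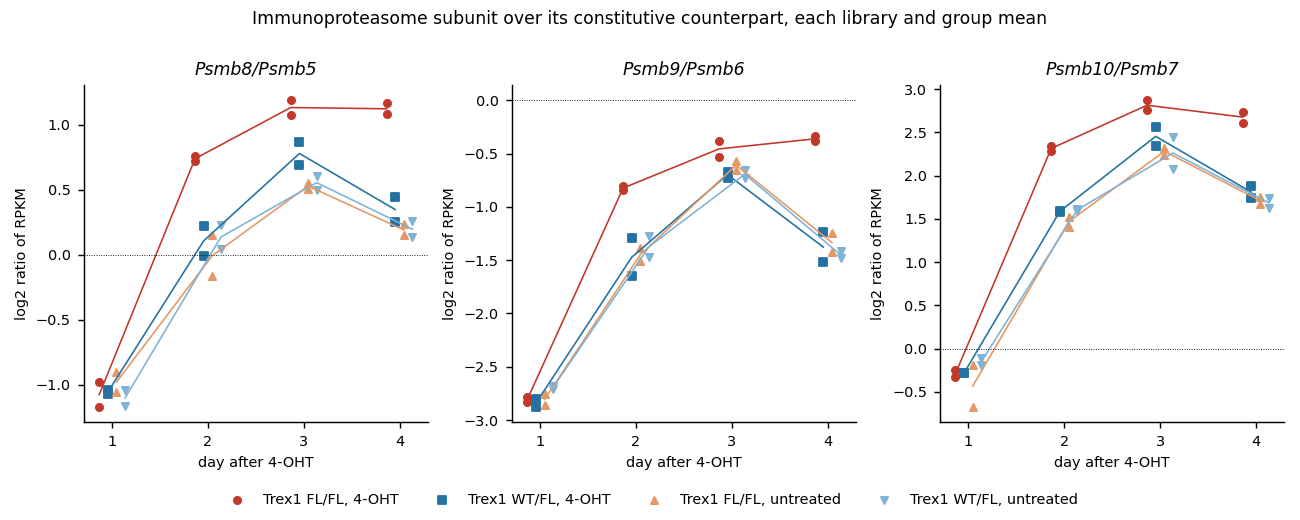
Log2 ratio of RPKM of each inducible proteasome subunit to its constitutive counterpart against the day after 4-OHT, with a point per library, lines through group means and a dotted line at equal RPKM. The 4-OHT-treated *Trex1* FL/FL libraries (red) lie above those of the other 3 arms on days 2 to 4. Their means lie 0.24 to 1.02 above the treated *Trex1* WT/FL means. In *Psmb9* to *Psmb6* on day 3 the lower red point (-0.53) is close to an untreated *Trex1* FL/FL library (-0.57).

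Among 53 further genes of the pathway, 0, 15, 12 and 19 were called higher and 0, 0, 2 and 4 lower over the 4 days of the main comparison (median 0.00, 0.13, 0.16 and 0.15), where 0.00655%, 5.69%, 6.69% and 9.84% of all genes were called higher. The interaction called fewer of them, with 0, 8, 7 and 11 higher and 0, 0, 1 and 2 lower. The 2 subunits of the PA28 activator, which caps the proteasome, were higher on days 2, 3 and 4: *Psme1* by 0.64 ± 0.06, 0.39 ± 0.06 and 0.89 ± 0.06, and *Psme2* by 0.58 ± 0.06, 0.48 ± 0.06 and 0.82 ± 0.06. *Tapbpl*, which encodes the tapasin-related peptide editor TAPBPR, was higher by 0.78 ± 0.12, 0.61 ± 0.11 and 1.05 ± 0.12. These 3 reached sizes like those of the members.

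The rest of the proteolytic machinery differed little. Of 11 genes of the proteasome core 4, 2 and 7 were called higher on days 2, 3 and 4, with list medians of 0.17, 0.15 and 0.25. In the interaction 0, 0 and 1 of these 11 were called, and on day 4 the median difference of the core between untreated genotypes was 0.16, with 0 called. Of the 3 constitutive catalytic subunits 0, 1 and 1 were called, namely *Psmb6* with 0.32 ± 0.07 on day 3 and 0.41 ± 0.07 on day 4. The interaction called none of the 3, and the difference of *Psmb6* between untreated genotypes was 0.22 ± 0.07 on day 4 (edgeR adjusted p = 0.103). Among 8 peptidases 1 was called higher on each of these days, a share close to that of all genes on day 4, and 1 lower on days 3 and 4. Among 7 genes of loading in the endoplasmic reticulum 3, 3 and 2 were higher and 0, 0 and 1 lower.

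Regulators fell into separate sets. Of 7 regulators of interferon and NF-κB signalling 4, 3 and 5 were called higher on days 2 to 4 and none lower. *Stat2*, part of the interferon receptor pathway, differed by 1.03 ± 0.12, 1.02 ± 0.12 and 1.99 ± 0.12. *Irf1*, a transcription factor of class I and immunoproteasome genes, differed by 0.78 ± 0.06, 0.41 ± 0.06 and 0.97 ± 0.06, and its relative *Irf2* by 0.50 ± 0.06 on day 4. Of 7 genes for the RFX, CREB and NF-Y factors that NLRC5 works with, 0 were called on days 2 and 3 by edgeR (1 and 4 at an unadjusted p below 0.05) and 1, *Creb1*, was lower on day 4 (-0.38 ± 0.09). *Ciita*, the class II counterpart of *Nlrc5*, went the other way, with -0.98 ± 0.19 on day 3 and -1.04 ± 0.20 on day 4 (edgeR adjusted p = 0.000346 and 0.000168), after -0.62 ± 0.21 on day 1 (unadjusted p = 0.00656) and -0.16 ± 0.21 on day 2, which were not called.

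Over the 16 group means the 10 genes shared 2 courses. As a description of log2 CPM over groups that share days and controls, *Nlrc5* had a Pearson r of 0.99 with *Tap1*, *Psmb10* and *Tapbp*, 0.98 with *Psmb9* and *Psmb8* and 0.97 with *Tap2*. With *H2-K1*, *B2m* and *H2-D1* it had 0.88, 0.86 and 0.80, while these 3 had 0.986 to 0.995 among themselves. Without the library that stood apart the r of *Nlrc5* with *Tap2* was 0.98, and those with the 8 other members moved by less than 0.01. Among the other genes most like *Nlrc5* were *Oasl1*, *Samd9l*, *Ifih1* and *Mx1* (r from 0.995 to 0.997). Those most like the mean course of the 9 other members were *Irf7*, *H2-T23*, *Bst2*, *Trim14* and *Misp* (r from 0.995 to 0.998).

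Some cell type markers moved with the same groups. The summed level of the 8 macrophage markers was 15200 to 17000 CPM in 4-OHT-treated *Trex1* FL/FL libraries and 16500 CPM in both treated *Trex1* WT/FL libraries on day 1, and 26400 to 28400 against 31800 to 33800 CPM on day 2. It was 38500 to 38900 against 45300 to 47500 CPM on day 3, and 28900 to 30900 against 30700 to 31400 CPM on day 4. Within it *Fcgr1* was called higher on days 2, 3 and 4 (1.52, 1.28 and 2.27), while *Lyz2*, the most abundant of the list, was called lower on days 2 and 3 and *Csf1r* and *Itgam* on days 3 and 4. *Cd68* was called higher on day 3. The 3 endothelial markers summed to 7.6 to 8.19 against 6.7 to 7.81 CPM on day 1 and to 70.5 to 71.2 against 14.3 to 18.3 CPM on day 2. Their sums were 40.8 to 43.5 against 18.4 to 23.5 CPM on day 3 and 31.7 to 33.2 against 4.29 to 5.49 CPM on day 4. Most of this was *Kdr*, as *Cdh5* did not exceed 2.03 and *Tie1* 0.128 CPM in any library. The dendritic cell markers summed to 1.09 to 1.21 against 0.691 to 1.02 CPM on day 1 and to 0.619 to 0.777 against 0.871 to 1.35 CPM on day 2. On day 3 they summed to 1.05 to 1.59 against 2.04 to 2.12 CPM, and on day 4 to 0.692 to 1.18 against 1.36 to 1.57 CPM. No tested marker of that list was called. The part of these markers in the class I results was not tested.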

How the data were processed

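RNA of 32 BMDM libraries was sequenced. The authors demultiplexed reads with JE, checked them with FastQC and quantified them with Salmon and tximport. The build GRCm39 and DESeq2 1.32 are named in the submitters' processing notes, and the annotation and the handling of strand are not given in the sources used here. The table as deposited holds estimated counts for each gene, in whole numbers and without normalization. Identifiers were matched to GENCODE vM39 (51048 of 54281, with 0.32% of counts unmatched).

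The tests were run in edgeR 4.0.16 under R 4.3.3 (TMM factors, robust quasi-likelihood fit of 16 group means, 16 residual degrees of freedom, minimum count 10, Benjamini-Hochberg adjustment over all 15257 genes, call at adjusted p below 0.01). The fit was tested on simulated data. CPM were computed with TMM-scaled library sizes and RPKM with merged exon lengths. Correlations used log2 CPM with a prior count of 2. Libraries of a group were numbered in accession order.

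The members, the lists of 53 further pathway genes and the markers were chosen with earlier results of these data known. Named beside the members were *Trex1*, the constitutive subunits, pathway genes called with an absolute log2 fold change above 0.5 on any day, and the 5 genes most like *Nlrc5* and the 5 most like the other members; 1 gene so named and 1 marker gene are not reported here. *Creb1* and the marker genes were chosen after seeing their values. Alternatives were other scaling factors and filters, DESeq2 1.42.0, fewer libraries in the fit, other thresholds and controls, a replicate block, ratios without gene length and leaving out each library. Gene length cancels in the genotype difference of a ratio, so that the alternative without it could not change that difference. Matches of motifs were counted in RefSeq promoter windows (GRCm38.p6).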

Additional observations from a re-analysis of the deposited data

Results flagged for a closer look

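The effect of 4-OHT differed between the genotypes by the edgeR interaction test (adjusted p below 0.01) in the following members, always with the higher effect in *Trex1* FL/FL cells. On day 2 the difference of log2 fold changes was 1.0649 for *Tap1*, 0.9485 for *Psmb10*, 0.9132 for *Tapbp*, 0.9012 for *Psmb9*, 0.8859 for *Nlrc5*, 0.8193 for *Psmb8* and 0.4727 for *B2m*. On day 3 it was 0.7815 for *Tap1*, 0.6841 for *H2-K1*, 0.5658 for *Psmb8*, 0.5207 for *Tapbp* and 0.3936 for *B2m*. On day 4 it was 1.4324 for *Nlrc5*, 1.3367 for *Tap1*, 1.089 for *Psmb9*, 0.989 for *H2-K1*, 0.8524 for *Psmb8*, 0.8076 for *Tapbp*, 0.7635 for *Psmb10*, 0.6512 for *H2-D1* and 0.5409 for *B2m*.

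The genotype difference after 4-OHT changed between days by the same kind of test. From day 1 to day 2 it grew by 0.908 for *Tap1*, 0.892 for *Psmb10*, 0.8163 for *Nlrc5*, 0.7894 for *Psmb9*, 0.737 for *Tapbp*, 0.7154 for *Psmb8* and 0.3221 for *B2m*. From day 3 to day 4 it grew by 0.8615 for *Psmb9*, 0.6952 for *Tap1*, 0.627 for *Nlrc5* and 0.4945 for *Psmb8*.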

How the results depend on the processing

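The calls of the genotype difference after 4-OHT stayed within 1.5 times their count under every alternative. Without a filter on low counts, 3 members were called between untreated genotypes on day 1 and 2 on day 4, 2 for 4-OHT in *Trex1* FL/FL cells on day 1, 10 in the interaction of day 3, 1 in the change of the genotype difference from day 2 to 3, and, from day 3 to 4, 2 in 4-OHT-treated *Trex1* FL/FL and 8 in untreated *Trex1* WT/FL cells. The interaction of day 3 (5 members) called 8 by DESeq2 and 9 at an adjusted p below 0.05. At that threshold 1 member was called from day 3 to 4 in 4-OHT-treated *Trex1* FL/FL cells. With library totals, 3 in place of 6 were called from day 2 to 3 in untreated *Trex1* FL/FL cells. An alternative chosen after seeing the data left the second untreated *Trex1* FL/FL library of day 1 out of the fit. It called 9 in the interaction of day 3, 7 in the change of the genotype difference from day 3 to 4, and in that step 1 in 4-OHT-treated *Trex1* FL/FL and 8 in untreated *Trex1* WT/FL cells. The share of all genes called was not determined under these alternatives, so that their counts cannot be set beside one. The cause of these shifts was not tested.

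With each library left out in turn, the remaining library of its group being assumed to vary like the other groups, counts ranged from 0 to 3 in the interaction of day 1, from 0 to 4 between untreated genotypes on day 1, from 0 to 3 for 4-OHT in *Trex1* FL/FL cells on day 1 and from 2 to 5 in the interaction of day 3. They ranged from 3 to 6 in 4-OHT-treated *Trex1* WT/FL and from 3 to 5 in untreated *Trex1* FL/FL cells from day 2 to 3, and from 2 to 3 in the latter from day 3 to 4.

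Estimates that changed sign were all from day 1 and uncalled. *B2m* (-0.0017) was 0.0008 with RLE and 0.0102 with upper-quartile factors, 0.0106 with library totals, 0.0096 with at least 100 counts in 2 libraries, 0.0052 with the 16 treated libraries, 0.0085 with the 4 libraries of the day and 0.0009 by DESeq2. Against untreated *Trex1* FL/FL cells *Tap1* was -0.0559 and *Nlrc5* -0.1055. Leaving out a library gave -0.0553 to 0.0476 for *B2m*, -0.0141 to 0.1336 for *Tapbp*, -0.0406 to 0.1179 for *Psmb9* and -0.0392 to 0.2239 for *Nlrc5* in the genotype difference, and -0.0033 to 0.1948 for *Tap1*, -0.0296 to 1.0158 for *Tap2*, -0.0443 to 0.2534 for *Psmb8*, -0.0227 to 0.4215 for *Psmb10* and -0.0733 to 0.19 for *Nlrc5* in the interaction.

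The labels carry no replicate numbers. A replicate block from the runs of library numbers, in which libraries of a run deviated together only weakly (r from -0.00775 to 0.144), called 7 members in the interaction of day 3, where *Psmb10* (0.4247) and *Nlrc5* (0.5324) passed, and 5 in the change of the genotype difference from day 3 to 4. With 2 libraries a group, small differences, those of day 1 above all, lie within the spread between libraries.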
